A study of Mus musculus with 19 samples.

Results

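A list of 40 cell cycle genes was followed through the cells of the injury site after burn/tenotomy, a mouse model of heterotopic ossification in which a dorsal scald burn and a transection of the Achilles tendon are followed by ectopic bone. The 40 genes were taken by name from the 27998 genes of each single cell library, and all 40 were present. They were divided by role into 4 G1 cyclins, 9 DNA replication genes, 9 mitotic kinases and cyclins, 14 genes of chromosomes, spindle and cytokinesis, 2 genes of the anaphase-promoting complex pathway and 2 inhibitors of cyclin-dependent kinases. Single cell transcripts were available from 19 libraries, namely 4 of day 0, 3 of day 3, 4 of day 7, 4 of day 21 and 4 with p7N3, a peptide that activates CD47, given intraperitoneally at 10 mg/kg each day for 3 days before and 3 days after injury. The labels name C57 and LysmCre/Tgfb1fx/fx mice for the series and give no genotype to a library, and the Cre of the latter is driven by the Lyz2 (LysM) locus in myeloid cells. The study used young adult males for its C57BL/6J mice. The labels list the scald burn also for day 0, which the study describes as uninjured tissue. No vehicle is named in the labels for the day 7 libraries. The study sets p7N3 against PBS, but it does not say that its day 7 time course is that PBS group. Replicate 4 of p7N3 has no harvest day in its labels and was taken as day 7 from the study. The study names variation between mice as the reason for its repeats, but the labels tie no library to an animal, so that p-values measure the spread between these libraries, which may in part be technical.

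A cell that divides passes from G1 into S phase when D and E cyclins with their kinases release the E2F factors, which switch on the genes that copy DNA. In G2 and mitosis Cdk1 with the A and B cyclins is activated, the spindle is built, and the anaphase-promoting complex with Cdc20 then destroys the cyclins so that the chromosomes separate. Cdkn1a (p21) and Cdkn2c (p18) restrain these kinases, and Cdkn1a is a classic target of p53. Resting tendon and connective tissue hold few dividing cells, and injury brings fibroblast-like, vascular and immune cells into division.

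Libraries held between 3019467 and 39870492 UMIs, with the lowest depth at day 0, and 39541 cells were kept. Cells were clustered without cell cycle genes and genes correlated with them, and clusters were named from markers, so that names were rebuilt here. At day 0 the stromal-like cells were mostly the Clec3b and Myoc cluster (1128 of 1188 cells) and the endothelial-like cells mostly the Fabp4 and Gpihbp1 cluster (954 of 1110), whereas 750 of 826 stromal-like cells of day 3 belonged to a cluster led by Prg4 and Cxcl14. Values are therefore compared between partly different clusters of a lineage. The stromal-like cells of day 3 stood apart from those of all other groups, with median depths of 33187 to 41123 UMIs per cell and with a UMI of the leukocyte gene Ptprc in 43.4 to 57.5% of cells, against a mean of 0.870% at day 0 and 9.20% at day 7. The endothelial-like cells of day 3 were few, 97 in 3 libraries, and held a Ptprc UMI in 35.3 to 45.2% of cells. The sum of 9 granulocyte markers in the stromal-like cells was 1482 to 2530 CPM (the UMIs of a gene scaled to the total of its sum) at day 3 and 93.3 to 147 CPM at day 0, with 0 of the 9 markers at 0 on day 3. In the endothelial-like cells this sum was 1288 to 2184 CPM at day 3 and 30.6 to 49.6 CPM at day 0. The part of these transcripts in the results below was not tested, and values without the cells that held a Ptprc UMI are given where they bear on a count.

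The stretches before the start sites of 6 members are shown, since these genes carry the main patterns described below, 4 that moved with division and both kinase inhibitors. They are Cdk1 (ENSMUSG00000019942, chr10:69352913-69353082, minus strand), Ccnb2 (ENSMUSG00000032218, chr9:70421555-70421724, minus strand), Mki67 (ENSMUSG00000031004, chr7:135716380-135716549, minus strand), Mcm5 (ENSMUSG00000005410, chr8:75109339-75109508, plus strand), Cdkn1a (ENSMUSG00000023067, chr17:29090809-29090978, plus strand) and Cdkn2c (ENSMUSG00000028551, chr4:109666757-109666926, minus strand). The sequences are those of RefSeq on GRCm38.p6, 5′ to 3′ on the strand of the gene, and 170 bases of each are printed. Capitals mark the letters TTTGAA (the CHR, a cell cycle element of mitotic genes), CCAAT (the box bound by NF-Y), TTTCGCGC, TTTGGCGC or TTTCCCGC (E2F sites) and a p53 core, which is CATG, 6 bases of any kind and CATG, on either strand. For Cdkn1a and Cdkn2c the first of 2 listed windows is shown.
Cdk1: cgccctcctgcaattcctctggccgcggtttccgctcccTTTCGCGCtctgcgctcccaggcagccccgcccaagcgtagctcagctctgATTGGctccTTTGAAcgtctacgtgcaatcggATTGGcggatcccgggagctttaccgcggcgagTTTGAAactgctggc
Ccnb2: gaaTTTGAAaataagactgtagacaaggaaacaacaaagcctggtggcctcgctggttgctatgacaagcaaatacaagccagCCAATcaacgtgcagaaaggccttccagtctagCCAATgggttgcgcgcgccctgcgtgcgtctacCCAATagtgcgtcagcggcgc
Mki67: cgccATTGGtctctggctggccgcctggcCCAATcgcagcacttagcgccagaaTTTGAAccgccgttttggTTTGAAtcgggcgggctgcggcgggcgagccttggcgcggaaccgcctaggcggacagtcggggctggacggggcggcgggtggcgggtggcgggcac
Mcm5: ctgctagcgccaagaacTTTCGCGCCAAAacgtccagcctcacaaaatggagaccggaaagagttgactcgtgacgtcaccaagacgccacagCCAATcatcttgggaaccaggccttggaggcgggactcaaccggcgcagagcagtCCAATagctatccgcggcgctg
Cdkn1a: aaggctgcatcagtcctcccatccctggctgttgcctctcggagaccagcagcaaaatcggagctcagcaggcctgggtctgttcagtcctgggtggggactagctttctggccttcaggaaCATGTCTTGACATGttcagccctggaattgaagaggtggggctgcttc
Cdkn2c: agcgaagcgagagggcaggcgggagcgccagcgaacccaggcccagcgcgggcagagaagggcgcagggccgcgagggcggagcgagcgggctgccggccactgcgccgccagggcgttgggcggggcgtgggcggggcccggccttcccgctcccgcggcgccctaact

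In these stretches Cdk1 held 2 CHR matches, 2 CCAAT boxes and 1 E2F match. Mki67 held 2 CHR matches and 2 CCAAT boxes, and Ccnb2 held 1 CHR match and 3 CCAAT boxes. Mcm5 held 2 E2F matches that overlap each other and 2 CCAAT boxes. Cdkn1a held the p53 core, and no searched letters were found in the stretch of Cdkn2c. Promoters were listed for 33 of the 40 members, and Ccnd1, Ccnd2, Ccne2, Ccna2, Gmnn, Tpx2 and Aurkb had no entry. Over the 250 bases before the start, CCAAT was present in 27 of 33 members (81.8%) and in 37.5% of 27025 genes, and TTTGAA in 9 of 33 members (27.3%) and in 18.3% of all genes. The CHR together with a CCAAT box was found in the same 9 members, against 7.34% of all genes. By role, the CHR was present in 2 of 7 mitotic kinases and cyclins, in 4 of 13 genes of chromosomes and spindle, in 2 of 2 genes of the anaphase-promoting complex pathway, in 1 of 8 replication genes and in 0 of 2 inhibitors. An E2F match was present in 3 of 33 members (9.09%) against 1.78% of all genes, and the p53 core in Cdkn1a alone (3.03% of members) against 0.570%. These matches describe letters and do not mark bound sites.

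Cells in division were first counted as those with a UMI of at least 3 of the 5 genes Mki67, Top2a, Birc5, Cdk1 and Ccna2. At day 0 there was no such cell among 1188 stromal-like or 1110 endothelial-like cells, which allows shares of up to 0.253% and 0.270%. These limits hold for cells called at the depth of day 0, with medians of 4313 to 6262 and 2576 to 4078 UMIs per cell in the libraries, and not for all cells that divide. Among stromal-like cells the share was 56.1, 41.6 and 62.2% in the 3 libraries of day 3, 8.40, 14.3, 5.96 and 17.3% at day 7 and 0.901, 0.369, 0 and 3.03% at day 21. The libraries of the 3 days did not overlap, and the means were 53.3 ± 10.6% (SD, n = 3), 11.5 ± 5.21% (n = 4) and 1.08 ± 1.35% (n = 4). Endothelial-like cells gave 44.9 ± 22.7% at day 3, with 71.0, 29.4 and 34.4% in the libraries, 13.7 ± 2.57% at day 7 and 2.29 ± 1.05% at day 21.

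Monocyte/macrophage-like cells, which made up 66.9% of all cells at day 3, held few dividing cells, 4.64 ± 0.171% at day 3, 1.3 ± 0.315% at day 7 and 1.81 ± 0.992% at day 21. Pericyte/smooth muscle-like cells, which wrap vessels, had 27.2 ± 11.8% at day 3 (27 of 95 cells), 17.9 ± 6.15% at day 7 and 2.29 ± 1.03% at day 21, and day 3 (17.9 to 40.5%) and day 7 (10.8 to 25.5%) overlapped. Thinned to 2000 UMIs per cell, which evens out depth, they had 2.30 ± 2.00% (2 of 95 cells), 6.78 ± 2.89% (37 of 562 cells) and 0.873 ± 0.757%, so that the order of day 3 and day 7 turned around, with libraries of 0 to 3.57% and 4.17 to 10.8%. Tenocyte-like cells, those with tendon markers, had 8.52 ± 3.12% at day 7 and 4.52 ± 1.26% at day 21, and T/NK lymphocyte-like cells 11.8 ± 4.52% at day 7. The tenocyte-like cells included a cluster of 1221 cells led by Col2a1 and Fmod, in which all listed chondrocyte markers were raised too. Clustering at a resolution of 2 gave a separate chondrocyte-like cluster of 124 cells. Granulocytes have left the cell cycle, and granulocyte-like cells served as the background. They gave 2 of 649 cells, or 0.308% (exact 95% interval 0.0373 to 1.11%), at median depths of 3915 to 8019 UMIs in the libraries of day 3, day 7 and p7N3. That interval pools cells over libraries and covers counting error only. The share of monocyte/macrophage-like cells at day 0, 0.533 ± 0.676%, lay within it, at median depths of 2920 to 4297.5 UMIs in the libraries. The background cluster was led by Cxcl3, Retnlg, Arg1 and S100a8 and had raised monocyte/macrophage markers too, so that it may hold other myeloid cells. At a resolution of 2 the granulocyte-like clusters held 1.10% of 363 and 0% of 144 cells over all groups. None of 211 plasmacytoid dendritic cell-like cells was called, which allows up to 1.42%. Shares were compared by their spread over libraries, with no test.

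**Figure D1:**
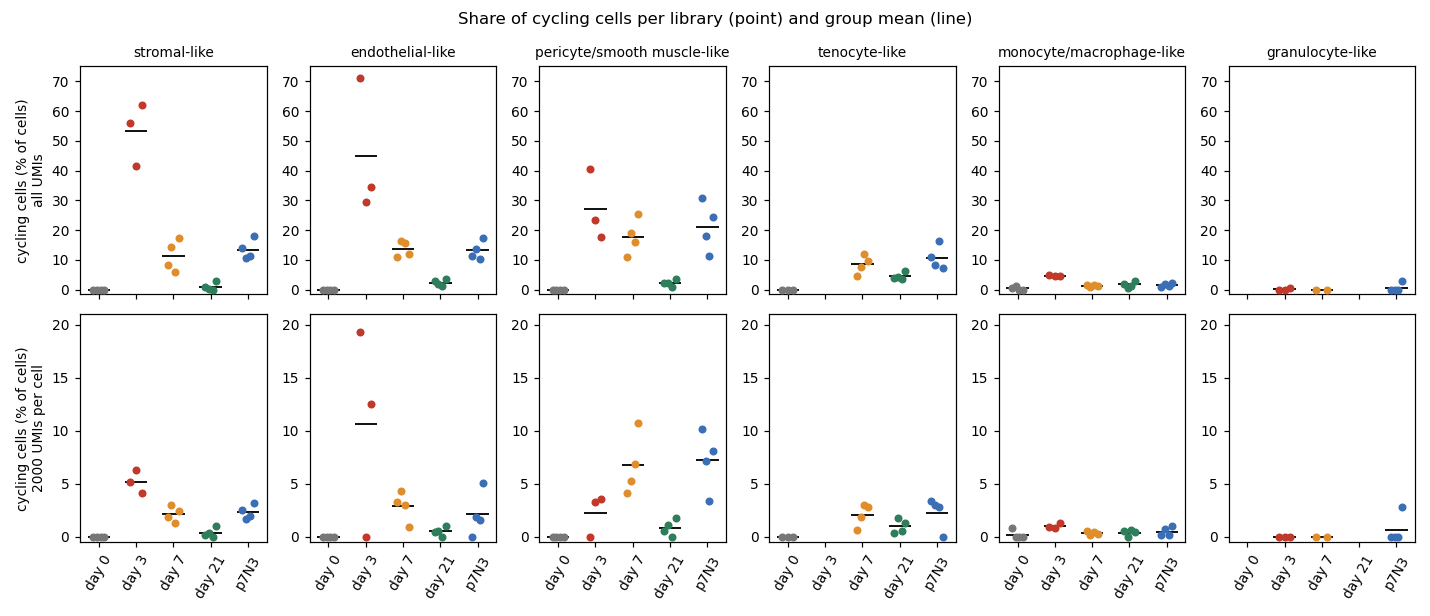
Share of cycling cells (%, at least 3 of 5 genes) in each library by group for 6 lineages, with all UMIs in the upper row and after thinning each cell to 2000 UMIs in the lower row. Points are libraries and lines are means. Stromal-like cells reach 41.6 to 62.2% at day 3 with all UMIs. After injury the mean share is far lower with thinning in each lineage other than the granulocyte-like background.

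The call depends on depth, and cells in division were the deeper cells. Dividing stromal-like cells of day 3 had medians of 39990 to 46397 UMIs and the others 26658 to 28988 UMIs, and at day 7 the medians were 20547 to 29461 and 9022 to 17059 UMIs. After each cell was thinned to 2000 UMIs, the stromal-like share was 5.20 ± 1.09% at day 3, 2.17 ± 0.702% at day 7 and 0.390 ± 0.440% at day 21. Thinned endothelial-like cells gave 10.6 ± 9.81%, 2.89 ± 1.42% and 0.514 ± 0.410%. The libraries of day 3 and day 7 still did not overlap in the stromal-like cells, whereas in the endothelial-like cells they overlapped, with 0 to 19.4% at day 3 and 0.926 to 4.32% at day 7. Thinned monocyte/macrophage-like cells gave 1.02 ± 0.214% at day 3 and 0.375 ± 0.176% at day 7. The thinned granulocyte-like background was 1 of 638 cells, with an upper limit of 0.870%. This limit pools cells over libraries and covers counting error only. The mean of day 7 lay below it, as did the lowest library of day 3 (0.867%) and the means of day 21 (0.409%) and p7N3 (0.510%). Thinning left out 127 stromal-like, 223 endothelial-like and 63 monocyte/macrophage-like cells of day 0 and no cell of these lineages at later times.

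Because lineages differ in size, the cells in division, called with all UMIs, were also described by their make-up. Stromal-like cells were 14.3% of all cells at day 3 and 61.4 ± 4.10% of the dividing ones, and monocyte/macrophage-like cells were 26.3 ± 0.744% of the dividing ones. At day 7 the dividing cells were 44.5 ± 10.6% stromal-like and 7.32 ± 3.43% monocyte/macrophage-like, the latter being 37.1% of all cells. At day 21 tenocyte-like cells were the largest part, 43.9 ± 6.31%, and they were 23.4% of all cells. Over whole libraries the dividing share was 0.181 ± 0.248% at day 0, 11.8 ± 0.765% at day 3, 7.14 ± 1.43% at day 7 and 2.36 ± 1.24% at day 21. The make-up by lineage also depended on depth. At day 3 median depths in the libraries were 33187 to 41123 UMIs in stromal-like and 9631.5 to 10204 UMIs in monocyte/macrophage-like cells. With all UMIs 420 and 180 of these cells were called, and after thinning 45 and 39. At day 21 tenocyte-like cells had medians of 22100 to 23531.5 UMIs. Of them 64 were called with all UMIs and 13 after thinning, against 24 and 8 stromal-like cells.

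The mean of log2(CPM + 1) over the 40 members was taken as a level. In stromal-like cells it was 1.53 ± 0.05 at day 0, 5.35 ± 0.11 at day 3, 4.61 ± 0.43 at day 7 and 2.51 ± 0.89 at day 21 (SD over libraries). In endothelial-like cells it was 2.06 ± 0.10, 5.38 ± 0.74, 5.03 ± 0.41 and 3.31 ± 0.48, and in monocyte/macrophage-like cells 2.47 ± 0.58, 3.95 ± 0.07, 3.04 ± 0.21 and 3.10 ± 0.45. In pericyte/smooth muscle-like cells it was 1.43 ± 0.16, 5.26 ± 0.32, 5.63 ± 0.14 and 3.70 ± 0.29, so that only there the mean over the libraries of day 7 was above that of day 3 among these 4 lineages. With p7N3 it was 4.68 ± 0.27, 4.92 ± 0.36, 3.31 ± 0.26 and 5.86 ± 0.39 in these lineages in turn. By role in stromal-like cells, the 9 mitotic kinases and cyclins went from 0.51 ± 0.12 at day 0 to 5.04 ± 0.13 at day 3, the 9 replication genes from 2.36 ± 0.15 to 5.47 ± 0.21 and the 2 inhibitors from 6.13 ± 0.14 to 5.67 ± 0.09.

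The members were next summed per library within a lineage, and the sums were compared with edgeR's quasi-likelihood test with Benjamini-Hochberg adjustment at 0.05 over all genes tested. In such sums, fewer dividing cells and less RNA per cell cannot be told apart. At day 3 against day 0, 37 of the 40 members were higher and 2 lower in stromal-like cells, where 66.2% of all genes tested were called (33.4% higher and 32.8% lower). The median log2 difference of the members was 5.46, or 5.36 with 5 members that had no UMI at day 0 set at their bound, and that of all genes 0.01. Members with no UMI or few UMIs at day 0 passed the filter on low counts through the later day alone and thereby had to differ, so that this count, the other counts and medians against day 0 and the p-values of such members are descriptions. With at least 10 UMIs in every library, 5 members were called in stromal-like, 10 in endothelial-like and 2 in monocyte/macrophage-like cells at day 3. Members with fewer UMIs in any library were then not tested. How many remained, and the share of all genes called, are not given here, so that lost calls and untested members are not told apart. The count was again 39 without the cells that held a Ptprc UMI.

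Cdk1, the kinase that drives mitosis, had no UMI in any of the 4 stromal-like sums of day 0 and stood at 90.5, 78.5 and 65.2 CPM at day 3 and at 43.1, 88.1, 43.4 and 75.3 CPM at day 7. Against a floor of 3 UMIs over the day 0 group this was at least 167-fold higher at day 3 and at least 133-fold higher at day 7. Top2a, which untangles DNA in mitosis, was likewise at 0 in each day 0 library and reached 79.4 to 90.3 CPM at day 3, at least 179-fold higher. Both genes were thus separated from day 0 in every library.

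Mki67, the proliferation antigen that coats mitotic chromosomes, was 1.36, 0, 1.60 and 0.708 CPM at day 0 and 41.4, 45.9 and 39.4 CPM at day 3, a log2 difference of 5.36 ± 0.27 (SE, adjusted p = 8.56e-09). Ccnb1, the B cyclin of Cdk1, was 0 to 1.14 CPM at day 0 and 35.9 to 47.8 CPM at day 3 (6.06 ± 0.35, adjusted p = 2.3e-08). Cdca3, an adaptor for the destruction of mitotic brakes, had the largest change with UMIs in both groups, with 2 UMIs over day 0 and 127 to 139 CPM at day 3, a ratio of 427 with a counting interval of 118 to 3523. None of these 3 overlapped between the groups. Ube2c, the ubiquitin conjugating enzyme of the anaphase-promoting complex, followed with a ratio of 344 (95.3 to 2845), also from 2 UMIs at day 0.

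All 9 replication genes were also higher at day 3 in stromal-like cells. Mcm5, a subunit of the helicase that opens DNA, was 2.26, 0, 0.534 and 1.42 CPM at day 0 and 44.1, 29.1 and 38.6 CPM at day 3 (4.99 ± 0.36, adjusted p = 1.52e-07). Pcna, the sliding clamp of DNA polymerase that also serves DNA repair, moved far less, from 46.7, 63.8, 35.3 and 34.7 CPM to 82.7, 67.2 and 80.0 CPM (0.94 ± 0.15, adjusted p = 0.000164). The groups did not overlap for either gene, but Pcna was already well detected before injury.

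The G1 cyclins were split. The E cyclins Ccne1 and Ccne2, which start DNA replication, were higher at day 3 by 4.13 ± 0.52 and 4.46 ± 0.58 (adjusted p = 1.75e-05 and 2.3e-05). Ccnd2, a D cyclin that links growth signals to the cycle, was lower, with 188, 181, 232 and 205 CPM at day 0 and 125, 115 and 122 CPM at day 3 (-0.62 ± 0.11, adjusted p = 0.000378). Ccnd1 was 24.0 to 43.9 CPM at day 0 and 25 to 29.0 CPM at day 3 and was not called (-0.15 ± 0.18, adjusted p = 0.479).

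The 2 inhibitors went in opposite directions in stromal-like cells. Cdkn1a was 295, 224, 338 and 219 CPM at day 0 and 63.1, 65.2 and 83.2 CPM at day 3, and it was lower by a log2 difference of -1.82 ± 0.17 (adjusted p = 1.36e-06). It stayed low, with 62.5 to 82.2 CPM at day 7 (-1.90 ± 0.16, adjusted p = 1.16e-06) and 42.4 to 80.7 CPM at day 21 (-2.08 ± 0.19, adjusted p = 8.7e-06), and no library of these days reached a day 0 library. Cdkn2c was 17.7, 17.1, 16.6 and 18.4 CPM at day 0 and 34.9, 43.2 and 30.2 CPM at day 3 (1.18 ± 0.16, adjusted p = 3.64e-05). It was 34.7 to 42.3 CPM at day 7 (1.2 ± 0.13, adjusted p = 1.18e-05) and 28.0 to 42.3 CPM at day 21 (1.01 ± 0.17, adjusted p = 0.000913), above day 0 in every library.

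At day 7 against day 0, 36 of the 40 members were higher and 2 lower in stromal-like cells (52.5% of all genes were called), with the day 0 libraries shared with the comparison above. The members had a median log2 difference of 4.61, or 4.47 with bounds for the 5 genes at 0. Top2a was at least 86.1-fold higher, Mki67 was 12.7 to 24.1 CPM (4.09 ± 0.43, adjusted p = 7.15e-06) and Mcm5 10.2 to 21.5 CPM (3.76 ± 0.50, adjusted p = 5.02e-05). Ube2c and Cdca3 again had the largest ratios with UMIs in both groups, 208 (57.5 to 1717) and 150 (41.6 to 1242). Pcna, at 38.8 to 47.8 CPM, lay among the day 0 values (0.01 ± 0.15, adjusted p = 0.969), and Ccnd2, at 133 to 153 CPM, was lower (-0.47 ± 0.12, adjusted p = 0.00405). By day 21 only 10 members passed the filter on low counts in stromal-like cells. Of these Rrm2, a subunit of the enzyme that makes deoxynucleotides, was higher (2.72 ± 0.56, adjusted p = 0.0029) with Cdkn2c. Pcna (20.5 to 31.8 CPM, -0.66 ± 0.18, adjusted p = 0.0135) and Cdkn1a were lower. These counts stood near the share of all genes, of which 31.5% were called, 15.6% higher and 15.9% lower.

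**Figure D2:**
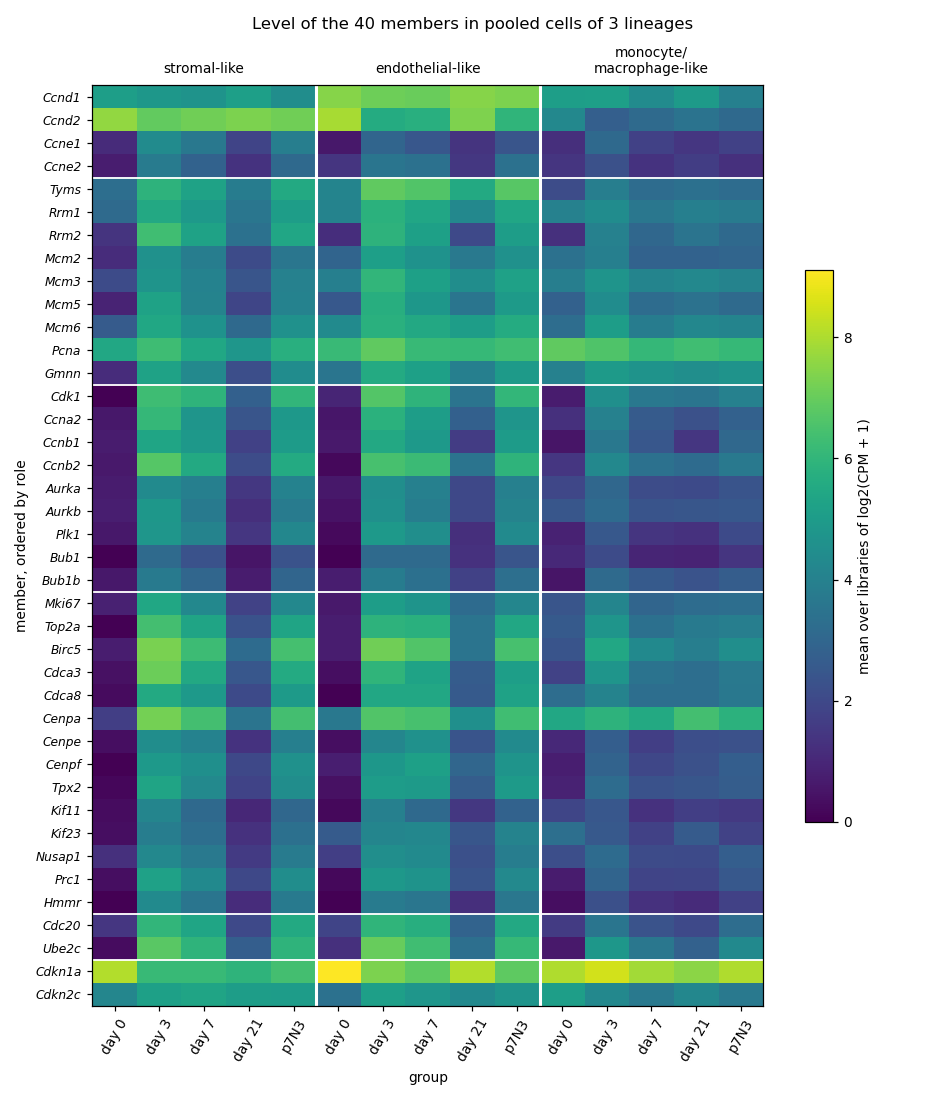
Mean log2(CPM + 1) over libraries of the 40 members, ordered by role, in 3 lineages and 5 groups. Brighter colours are higher. The mitotic members are darkest at day 0 in stromal-like and endothelial-like cells, whereas Cdkn1a and Ccnd2 are highest at day 0 in both.

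Endothelial-like cells were compared in the same way. At day 3 against day 0, 31 of the 40 members passed the filter, 28 were higher and 2 lower (55.8% of all genes were called). Without cells holding a Ptprc UMI, 27 were called in either direction. Cdk1 was 0.744, 3.36, 0.836 and 0 CPM at day 0, 148, 64.6 and 107 CPM at day 3 and 64.4, 81.8, 80.0 and 31.2 CPM at day 7. The log2 differences from day 0 were 6.51 ± 0.45 (adjusted p = 1.85e-07) and 5.75 ± 0.50 (adjusted p = 5.06e-07), with no overlap. Cdca8 (borealin), a subunit of the chromosomal passenger complex, had no UMI at day 0 and was at least 99.1-fold higher at day 3 and at least 78.8-fold higher at day 7. Ccnb2, another B cyclin, had 1 UMI over day 0, and its ratio at day 3 was 467 with a counting interval of 83.1 to 18515.

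Mki67 in endothelial-like cells had 3 UMIs over day 0 and was 63.8, 15.6 and 35.0 CPM at day 3, a ratio of 67.2 (22.4 to 331), and 25.2, 31.8, 34.0 and 14.6 CPM at day 7, a ratio of 47.1 (15.9 to 229.6). Mcm5 was 2.52 to 9.20 CPM at day 0, 40.2 to 73.4 CPM at day 3 (3.45 ± 0.34, adjusted p = 3.42e-06) and 16.6 to 45.5 CPM at day 7 (2.49 ± 0.39, adjusted p = 0.000101). Both were above day 0 in every library. Top2a differed by 6.28 ± 0.50 at day 3 and 6.16 ± 0.59 at day 7 (adjusted p = 6.15e-07 and 1.26e-06), and Ccnb1 by 6.23 ± 0.84 and 5.24 ± 0.52 (adjusted p = 4.29e-05 and 1.65e-06). Pcna was 66.2 to 85.3 CPM at day 0, 104 to 127 CPM at day 3 (0.82 ± 0.13, adjusted p = 0.000175) and 57.2 to 97.4 CPM at day 7 (-0.00 ± 0.17, adjusted p = 0.984).

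Ccnd2 was lower in endothelial-like cells too, and the difference from the decrease in stromal-like cells was not tested. It was 245, 247, 217 and 270 CPM at day 0, 31.9, 76.9 and 43.3 CPM at day 3 and 43.2, 38.2, 66.8 and 69.7 CPM at day 7, with log2 differences of -2.16 ± 0.22 (adjusted p = 4.42e-06) and -2.18 ± 0.17 (adjusted p = 1.48e-07). At day 21 it was 138 to 181 CPM, between the other days and still below day 0 in each library (-0.56 ± 0.10, adjusted p = 0.00118). Ccnd1 was 150 to 200 CPM at day 0 and 112 to 147 CPM at day 7, without overlap (-0.42 ± 0.12, adjusted p = 0.00786), and was not called at day 3 (-0.23 ± 0.12, adjusted p = 0.128).

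Cdkn1a fell and Cdkn2c rose in endothelial-like cells as well. Cdkn1a was 731, 407, 700 and 457 CPM at day 0, 106, 213 and 175 CPM at day 3, 113, 65.5, 130 and 180 CPM at day 7 and 238, 369, 276 and 222 CPM at day 21, so that every later library was below every day 0 library. The log2 differences were -1.68 ± 0.26 (adjusted p = 0.000133), -2.24 ± 0.26 (adjusted p = 7.4e-06) and -1.04 ± 0.20 (adjusted p = 0.00238). Cdkn2c was 6.70, 10.9, 7.52 and 14.9 CPM at day 0, 58.0, 18.9 and 38.1 CPM at day 3 and 21.3 to 30.6 CPM at day 7 (2.05 ± 0.36 and 1.44 ± 0.24, adjusted p = 0.000339 and 0.000149).

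At day 7 against day 0, 34 members passed the filter in endothelial-like cells, 30 were higher and 3 lower (59.3% of all genes), and the median log2 difference was 4.97, or 4.24 with 3 genes at 0 set at their bound. At day 21, 13 passed, 6 were higher and 2 lower (27.9% of all genes). The 6 were Tyms, which makes thymidylate (1.59 ± 0.28, adjusted p = 0.00152), Mcm5 (1.15 ± 0.40, adjusted p = 0.0478), Cdkn2c, Mcm2, the centromere histone Cenpa and Mcm6, and the 2 were Cdkn1a and Ccnd2. This count was 4 without day 21 replicate 1 and also 4 without day 21 replicate 4, and 5 with DESeq2.

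In monocyte/macrophage-like cells, the phagocytes that made up most of the infiltrate, the sums of day 0 came from fewer cells (394 in 4 libraries), and the differences from the other lineages were not tested. At day 3 against day 0, 18 members passed the filter, 13 were higher and 2 lower (53.8% of all genes were called, 25.6% higher and 28.2% lower), with a median log2 difference of 0.94. The count of 15 rose to 25, 25 and 27 without day 0 replicates 1, 2 and 3. Ube2c had 3 UMIs over day 0 and a ratio of 14.7 (5.01 to 71.2). Cdk1 was 6.14, 0, 0 and 0 CPM at day 0 and 24.0, 22.4 and 20 CPM at day 3, and each library of day 3 was above those of day 0 (3.15 ± 0.53, adjusted p = 0.000276). Mcm5 was 3.07, 3.49, 9.86 and 12.6 CPM at day 0 and 21.3, 21.7 and 19.1 CPM at day 3, without overlap (1.72 ± 0.36, adjusted p = 0.00142).

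Mki67 and Ccnb1 did not pass the filter at day 3 in this lineage. Mki67 was 12.3, 6.98, 0 and 6.29 CPM at day 0 and 15.1 to 18.2 CPM at day 3, and Ccnb1 had 2 UMIs over day 0 and a ratio of 9.13 (2.52 to 75.6). Top2a was 20, 14.0, 0 and 3.14 CPM at day 0 and 29.4, 22.3 and 27.0 CPM at day 3 (1.24 ± 0.42, adjusted p = 0.0242). Top2a was no longer called without day 0 replicate 4.

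The inhibitors were called in directions opposite to those of the other lineages at day 3, and the difference between lineages was not tested. Cdkn1a was 330, 262, 263 and 208 CPM at day 0 and 359, 351 and 366 CPM at day 3, higher without overlap (0.45 ± 0.13, adjusted p = 0.00983), and Cdkn2c was 32.3, 41.9, 42.7 and 22.0 CPM at day 0 and 19.2, 17.7 and 17.2 CPM at day 3, lower without overlap (-0.88 ± 0.21, adjusted p = 0.00318). Ccnd2 was lower as in the other lineages, with 32.3, 24.4, 19.7 and 6.29 CPM at day 0 and 5.31 to 6.39 CPM at day 3, where the lowest day 0 library lay inside the day 3 range (-1.92 ± 0.35, adjusted p = 0.000536). Pcna was not called (-0.21 ± 0.13, adjusted p = 0.206), nor was Ccnd1 (-0.02 ± 0.24, adjusted p = 0.964).

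At day 7 against day 0, 31 members passed the filter in monocyte/macrophage-like cells, and 6 were higher and 4 lower. Of all genes 35.9% were called, 18.6% higher and 17.4% lower, so that the members stood near the share of all genes. This count of 10 became 4, 5, 5 and 4 without day 7 replicates 1, 2, 3 and 4. Bub1b, a kinase of the spindle checkpoint, was highest by fit, with 1 UMI over day 0 and a ratio of 8.20 (1.45 to 326), followed by Ube2c with a ratio of 5.99 (2.03 to 29.2). Kif23, a motor of cytokinesis, was 21.5, 3.49, 6.57 and 12.6 CPM at day 0 and 1.23 to 3.29 CPM at day 7 and was lower (-2.18 ± 0.51, adjusted p = 0.00276), as was Ccnd2 at 6.69 to 11 CPM (-1.33 ± 0.36, adjusted p = 0.00786). Cdkn2c was 9.19 to 15.9 CPM (-1.32 ± 0.28, adjusted p = 0.00134) and Pcna 54.7 to 74.2 CPM against 98.3 to 141 CPM (-0.59 ± 0.15, adjusted p = 0.00574), both below each day 0 library. Cdkn1a was again at its day 0 level (-0.01 ± 0.14, adjusted p = 0.958). At day 21, 11 members passed, and Cenpa was higher (1.11 ± 0.23, adjusted p = 0.00188) and Pcna and Cdkn1a lower. This too was near the share of all genes, 26.0%, with 12.3% higher and 13.7% lower. The count of 3 was 1, 1 and 5 without day 0 replicates 2, 3 and 4 and 1 without day 21 replicate 3.

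**Figure D3:**
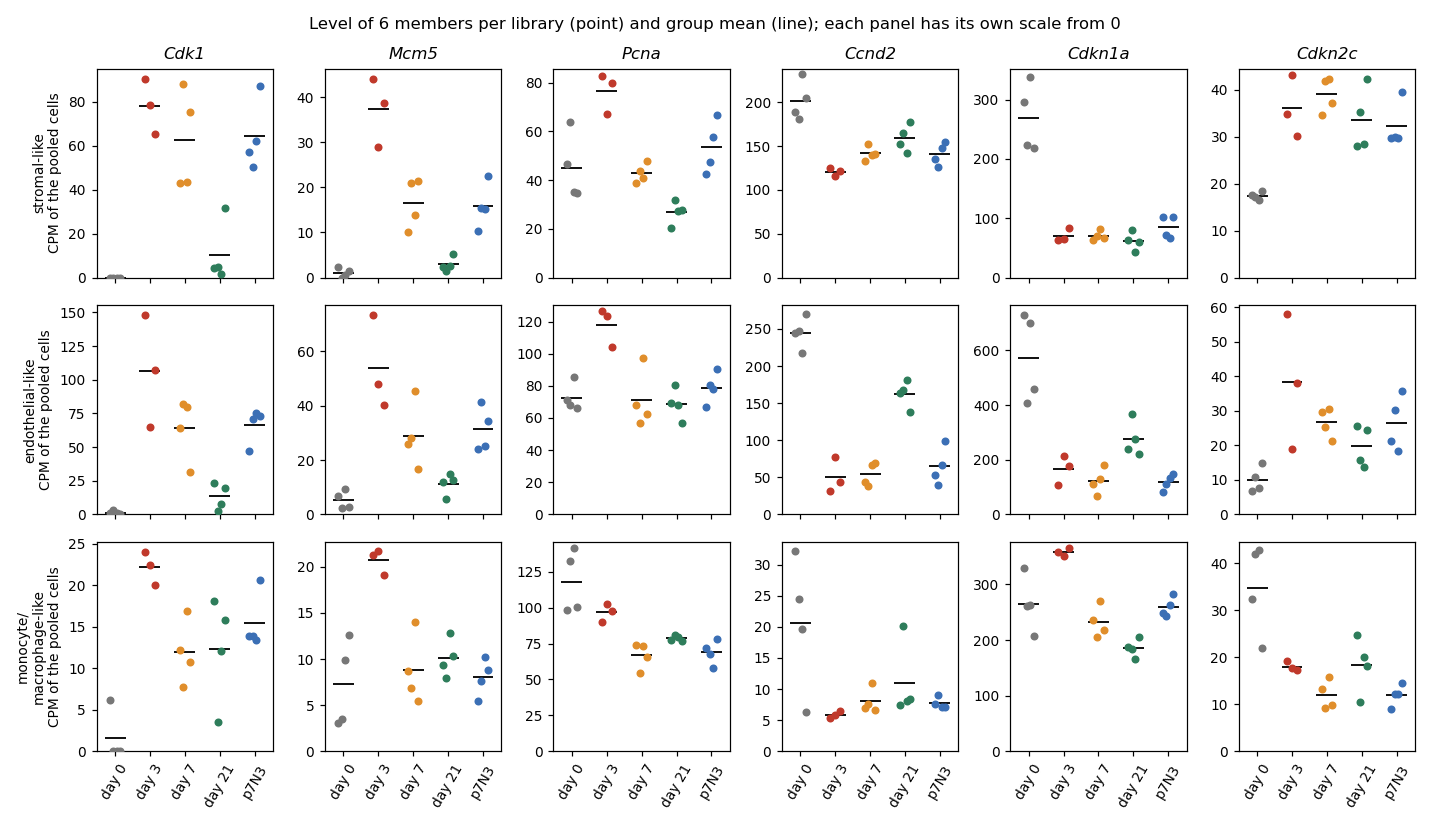
CPM per library of Cdk1, Mcm5, Pcna, Ccnd2, Cdkn1a and Cdkn2c in 3 lineages, by group. Points are libraries and lines are means. Cdkn1a lies lower at day 3 than at day 0 in stromal-like and endothelial-like cells and higher in monocyte/macrophage-like cells, and Cdkn2c shows the opposite.

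Across the 3 lineages, 12 members were called higher at day 3 in each, namely Mcm3, Mcm5, Mcm6, Gmnn, Cdk1, Ccnb2, Top2a, Birc5, Cdca3, Cdca8, Cenpa and Ube2c, and Ccnd2 alone was lower in each. They stood among the 18 members tested in all 3, and of all 5974 genes so tested 16.7% were higher and 10.9% lower in each. At day 7 these were Gmnn, Cdk1, Ccnb2, Birc5 and Ube2c of 28 members tested, with Ccnd2 lower, where 9.69% of 8295 genes were higher and 6.7% lower in each. At day 21 no member of 8 was higher in each lineage, and Cdkn1a was lower in each, where 3.14% of 6373 genes were higher and 2.42% lower. The 3 lineages come from the same libraries.

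The comparison of day 7 with day 3 does not rest on the shallow day 0 libraries, and all 40 members passed the filter in each lineage. In monocyte/macrophage-like cells 37 members were lower at day 7 and 0 higher, where 16.7% of all genes were called lower and 15.4% higher, and the median log2 difference was -1.09 against 0.00 for all genes. Ccne1 (6.64 to 8.86 CPM at day 3 and 1.82 to 3.07 CPM at day 7) and Bub1, a spindle checkpoint kinase (2.62 to 4.06 and 0.541 to 1.53 CPM), had the largest decreases, -1.60 ± 0.20 (adjusted p = 0.000294) and -1.59 ± 0.31 (adjusted p = 0.0035), without overlap. Mki67 was lower by -1.18 ± 0.19 (adjusted p = 0.0012), Top2a by -1.38 ± 0.19 (adjusted p = 0.000553) and Cdk1 by -0.85 ± 0.18 (adjusted p = 0.00544). The 3 members not called were Ccnd2, which was higher in sign (0.50 ± 0.19, adjusted p = 0.0616), Gmnn (-0.23 ± 0.10, adjusted p = 0.1) and Cenpa (-0.30 ± 0.12, adjusted p = 0.0715).

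In stromal-like cells 25 members were lower at day 7 than at day 3 and 0 higher (19.0% of all genes were called lower and 20.2% higher), with a median log2 difference of -0.84. All 9 replication genes were among them, with 5 of 9 mitotic kinases and cyclins, 9 of 14 genes of chromosomes and spindle and 2 of 4 G1 cyclins. Cdca3 (127 to 139 CPM at day 3 and 27.8 to 63.5 CPM at day 7) and Ccna2, the A cyclin of S and G2 phase (57.3 to 72.9 and 13.1 to 41.1 CPM), had the largest decreases, -1.58 ± 0.24 (adjusted p = 0.00129) and -1.3 ± 0.32 (adjusted p = 0.0115). Mki67 (-1.27 ± 0.19, adjusted p = 0.00112), Mcm5 (-1.23 ± 0.25, adjusted p = 0.00491), Top2a (-1.14 ± 0.15, adjusted p = 0.000725) and Pcna (-0.91 ± 0.11, adjusted p = 0.000403) were lower as well. Cdk1 (-0.39 ± 0.25, adjusted p = 0.242) and Ccnb1 (-0.50 ± 0.28, adjusted p = 0.182) overlapped between the days and were not called, and neither were Cdkn1a (-0.07 ± 0.13, adjusted p = 0.694) and Cdkn2c (0.04 ± 0.13, adjusted p = 0.853). The count was 14 without day 3 replicate 1 and 17 without the cells that held a Ptprc UMI.

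In endothelial-like cells 4 of the 40 members were lower and 0 higher, near the share of all genes (7.06% called lower and 5.15% higher). All 4 were replication genes. They were Mcm3 (-0.98 ± 0.28, adjusted p = 0.045), Mcm5 (-0.97 ± 0.29, adjusted p = 0.0477), Pcna (-0.83 ± 0.18, adjusted p = 0.0122) and Rrm2 (-0.79 ± 0.24, adjusted p = 0.049). These 4 genes were also called lower in the other lineages, where 303 of 9083 genes (3.34%) were called lower in all 3. With 97 cells at day 3 the endothelial-like count was unstable, and with it this overlap, 1, 15 and 2 without day 3 replicates 1, 2 and 3, and 1 without day 7 replicate 1, 2 or 4. All 40 members were lower in sign, with a median of -0.62.

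At day 7, lineages were compared within the same 4 libraries, with the library as a term of the fit. Stromal-like cells had 33 members higher and 4 lower than monocyte/macrophage-like cells, where 76.6% of all genes were called (39.9% higher and 36.6% lower), with a median log2 difference of 1.70. Ccnd2 was highest, 133 to 153 CPM in stromal-like and 6.69 to 11 CPM in monocyte/macrophage-like cells (3.85 ± 0.12, adjusted p = 3.91e-11), followed by Cdc20, the activator of the anaphase-promoting complex, 23.6 to 70.7 and 3.15 to 5.79 CPM (3.02 ± 0.20, adjusted p = 4.75e-08). Cdkn1a was lower, 62.5 to 82.2 and 206 to 270 CPM (-2.04 ± 0.08, adjusted p = 2.47e-10), as were Pcna (-0.96 ± 0.10, adjusted p = 2.05e-06), Gmnn (-0.70 ± 0.18) and Mcm3 (-0.40 ± 0.15). Cdk1 differed by 2.04 ± 0.24 and Mki67 by 1.05 ± 0.23 (adjusted p = 9.85e-06 and 0.00135). Ccnd2, Cdc20 and Cdkn1a did not overlap between these lineages.

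Endothelial-like cells had 35 members higher and 2 lower than monocyte/macrophage-like cells (68.5% of all genes were called, 34.7% higher), with a median of 1.88. Cenpf, a kinetochore protein, was 17.9 to 50.6 and 1.65 to 3.97 CPM (3.12 ± 0.24, adjusted p = 3.19e-08), and Cdc20 differed by 3.10 ± 0.21 (adjusted p = 1.06e-08). Cdkn1a (-1.54 ± 0.16, adjusted p = 1.08e-06) and Pcna (-0.47 ± 0.10, adjusted p = 0.000881) were lower. Ccnd1 was higher in endothelial-like than in monocyte/macrophage-like cells (2.16 ± 0.11, adjusted p = 4.88e-10) and not called between stromal-like and monocyte/macrophage-like cells (0.01 ± 0.13, adjusted p = 0.925). Both comparisons share the monocyte/macrophage-like sums.

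The question of whether p7N3 changed division at day 7 was addressed by comparing p7N3 with day 7, whose libraries are those of the time course. These have no vehicle in their labels, so that an effect of the injections themselves cannot be told apart. No member was called in any of the 3 lineages, where 0.0% of all genes were called in each by edgeR. DESeq2 called no member and 6 of 11123 genes in monocyte/macrophage-like, 58 of 13112 in stromal-like and 0 of 10263 in endothelial-like cells. An unadjusted p under 0.05 was reached by 12, 2 and 2 members and by 7.26, 10.5 and 7.81% of all genes in these lineages. With replicates 1 to 3 only it was reached by 6, 1 and 15 members, and no member was called. In monocyte/macrophage-like cells it was reached by 2 members at a resolution of 2 and by 3 without the top Scrublet scores. There it was also reached by 5 without p7N3 replicate 4 and by 15 without the filter on low counts.

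In stromal-like cells Cdk1 was 57.0, 50.5, 62.2 and 87.3 CPM with p7N3 and 43.1, 88.1, 43.4 and 75.3 CPM at day 7, a log2 difference of 0.05 with a 95% interval of -0.50 to 0.59. The 40 members ranged from -0.32 (Mcm2) to 0.33 (Pcna, interval 0.03 to 0.63, adjusted p = 0.439), and the intervals of all 40 lay within 1 on the log2 scale. In endothelial-like cells the members ranged from -0.76 (Bub1, interval -1.46 to -0.07, adjusted p = 0.607) to 0.28 (Ccnd1), and 30 intervals lay within 1. Bub1, at 1.81 to 6.76 CPM with p7N3 and 7.31 to 8.71 CPM at day 7, was the only member there whose libraries did not overlap, 1 of 40 where 4.38% of all genes did not overlap. In stromal-like cells this held for 0 of 40 members and 5.44% of all genes.

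In endothelial-like cells 10 of the 40 members were higher in sign with p7N3, with a median log2 difference of -0.14. In stromal-like cells 24 were, with a median of 0.03. Many members move together, so that such signs are not 40 separate observations. In monocyte/macrophage-like cells 32 of the 40 were higher in sign, with a median of 0.24 against 0.00 for all genes, and 27 intervals lay within 1. The largest difference was that of Cdc20, 6.76, 9.06, 8.6 and 10.2 CPM with p7N3 and 4.36, 3.15, 3.25 and 5.79 CPM at day 7 (0.99, interval 0.56 to 1.43, adjusted p = 0.399). Ube2c (13.5 to 26.3 and 9.19 to 13.4 CPM), Cenpf (4.27 to 8.48 and 1.65 to 3.97 CPM) and Plk1, a kinase of mitotic entry (2.65 to 3.71 and 0.685 to 2.61 CPM), also did not overlap, which made 4 of 40 members where 4.42% of all genes did not overlap. Cdc20 was called without the filter on low counts (adjusted p = 0.0259), and over the alternatives the smallest adjusted p of a member ranged from 0.0259 to 0.958. Cdkn1a (0.13, interval -0.07 to 0.32) and Cdkn2c (-0.04, interval -0.44 to 0.37) were not called.

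**Figure D4:**
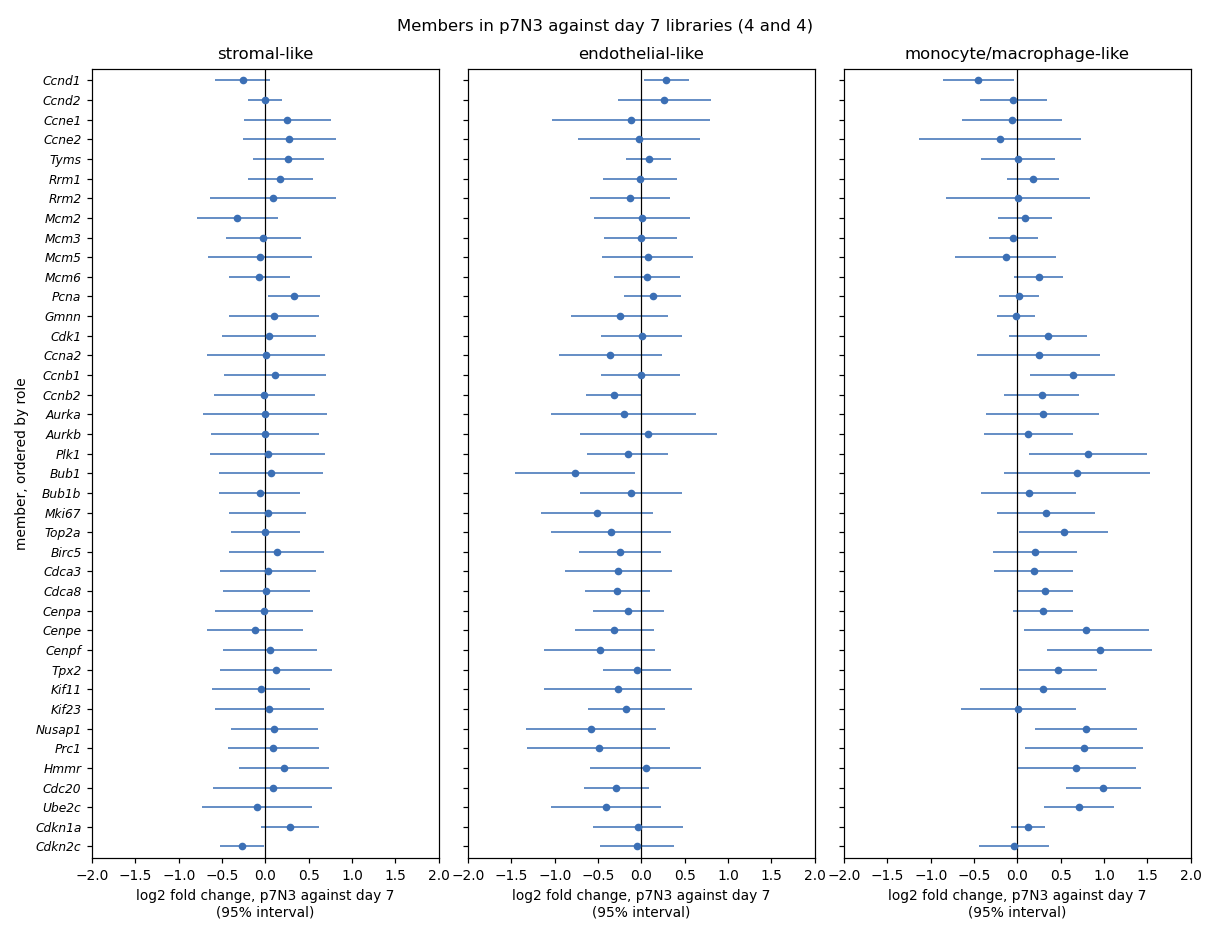
Log2 difference of p7N3 against day 7 with its 95% interval for each of the 40 members in 3 lineages. All 40 intervals in stromal-like cells lie within 1. The members of endothelial-like cells lie mostly below 0 and those of monocyte/macrophage-like cells mostly above 0, led by Cdc20 at 0.99.

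The share of dividing cells with p7N3 was 13.4 ± 3.45% in stromal-like, 13.2 ± 3.17% in endothelial-like, 1.56 ± 0.737% in monocyte/macrophage-like and 21.1 ± 8.30% in pericyte/smooth muscle-like cells (n = 4 each). Each overlapped with day 7, also after thinning, when the means were 2.36, 2.14, 0.510 and 7.24% with p7N3 and 2.17, 2.89, 0.375 and 6.78% at day 7. Over whole libraries and with all UMIs, 7.62 ± 2.00% of cells were dividing with p7N3.

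Within a lineage the dividing cells were unevenly spread over clusters. At day 7 the stromal-like cluster led by Cxcl5, Crabp1 and Tnc held 25.2 ± 5.92% dividing cells and the one led by Clec3b and Sfrp4 1.24 ± 0.347%, and with p7N3 these were 26.0 ± 5.02% and 1.08 ± 0.820%. Thinned, they were 4.88 ± 1.21% and 0.417 ± 0.383% at day 7 and 4.65 ± 0.495% and 0.354 ± 0.244% with p7N3. The stromal-like cluster led by Sfrp1, Sfrp2 and Ptx3 held 5.43 ± 3.41% at day 7 and 10.6 ± 5.89% with p7N3, or 0.861 ± 0.869% and 1.18 ± 1.3% thinned. Among monocyte/macrophage-like cells of day 3, the cluster led by Mmp12 and Arg1 held 19.9 ± 1.69%, the one led by Pf4 and C1qb 5.97 ± 0.867% and the one led by Chil3, Ifitm6 and Ccr2, genes of recruited monocytes, 0.101 ± 0.175%. Thinned, these were 4.36 ± 1.01%, 1.24 ± 0.357% and 0%. The Mmp12 and Arg1 cluster held 3.36 ± 1.5% at day 7, or 0.760 ± 0.547% thinned. Mmp9, Ctsk and Acp5 were also among its leading genes. At a resolution of 2, over all groups, a cluster of 420 cells led by Mmp9, Acp5 and Ctsk held 27.4% dividing cells. The one led by Mmp12 and Gpnmb then held 1.36% and the one led by Cxcl3 and Arg1 0.915%. How these clusters share the cells of the Mmp12 and Arg1 cluster was not tested.

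Among endothelial-like cells of day 7, the cluster led by Ccl21a, Mmrn1 and Lyve1, genes of lymphatic vessels, held 24.9 ± 14.2% and the one led by Plvap 11.7 ± 2.33%, or 7.61 ± 6.59% and 1.94 ± 1.86% thinned. The cluster led by Fabp4 and Gpihbp1, genes of capillaries, had no dividing cell among 954 at day 0, which allows up to 0.314%. In pericyte/smooth muscle-like cells the cluster led by Rgs5 held 19.2 ± 6.56% at day 7 and the one led by Tagln and Myh11 11.3 ± 3.71%, whereas thinned they held 6.86 ± 3.48% and 6.31 ± 1.15%. The tenocyte-like cluster led by C1qtnf3 and Aspn held 8.6 ± 3.11% at day 7 and 8.99 ± 5.43% at day 21, where the one led by Col2a1 and Fmod held 3.71 ± 0.588%. Thinned, these were 2.10 ± 1.12%, 1.61 ± 1.88% and 0.948 ± 0.935%. Clusters differ in depth, and no difference between clusters was tested.

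**Figure D5:**
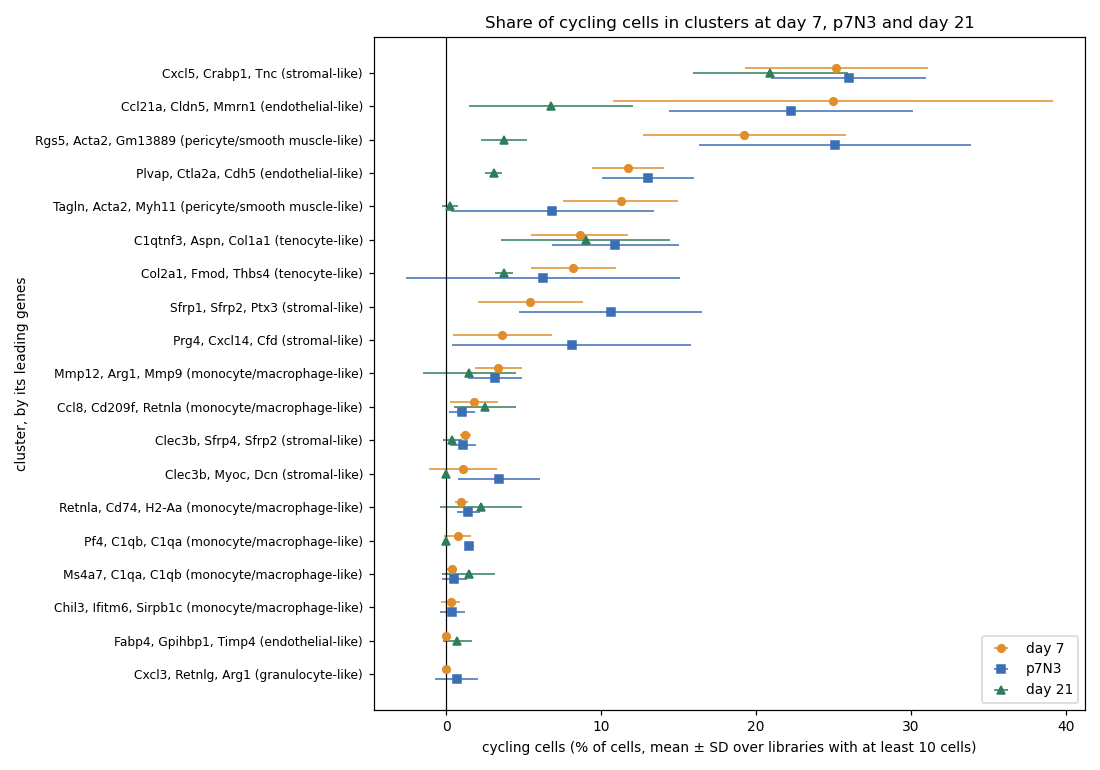
Share of cycling cells (%, all UMIs) per cluster at day 7, with p7N3 and at day 21, as mean and SD over libraries. The stromal-like cluster led by Cxcl5, Crabp1 and Tnc stands at 25.2% at day 7 and 26.0% with p7N3, against 1.24% and 1.08% in the cluster led by Clec3b and Sfrp4.

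Dividing and other cells of a lineage were then compared within each library, as a description, since the call itself uses 5 members. Cdkn2c stood with the dividing cells, 88.1 ± 14.2 CPM in dividing and 27.8 ± 4.33 CPM in other stromal-like cells of day 7, a mean log2 ratio of 1.63 ± 0.18 (SD, n = 4). Monocyte/macrophage-like cells of that day had 98.6 ± 21.7 and 9.47 ± 1.98 CPM of it (3.24 ± 0.15), and in endothelial-like cells the log2 ratio was 1.47 ± 0.58. It was higher in the dividing cells of every library of these groups.

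Cdkn1a stood with the other cells in stromal-like cells, with log2 ratios of -0.40 ± 0.25 at day 3, -0.43 ± 0.22 at day 7 and -0.79 ± 0.26 with p7N3, below 0 in every library. The log2 ratio was -1.17 ± 0.19 among monocyte/macrophage-like cells of day 3. In endothelial-like cells it varied, 0.21 ± 0.96 at day 7 and -1.05 ± 0.51 with p7N3. Pcna (1.76 ± 0.04 in stromal-like cells of day 7 and 1.71 ± 0.03 among monocyte/macrophage-like cells of day 3) and Mcm5 (3.06 ± 0.11 and 2.97 ± 0.23) were higher in dividing cells. Ccnd2 was -0.16 ± 0.21 in stromal-like cells of day 7 and -0.48 ± 0.13 with p7N3.

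The likeness of each member to the mean of all members was measured as Pearson's r of log2(CPM + 1) over 105 sums of at least 50 cells. The sums share libraries and differ in depth. Each member is itself part of that mean, which raises its r, whereas genes outside the list are not. Ccna2 (0.96) and Tpx2, a spindle assembly factor (0.95), were closest, and Cdkn1a (-0.41), Ccnd1 (0.04), Pcna (0.30), Ccnd2 (0.37) and Cdkn2c (0.58) were the least alike. Outside the list and the related lists below, 2810417H13Rik (0.94), Kifc1 (0.93), 2700094K13Rik (0.91), Prr11 (0.90) and Mxd3 (0.88) were most like the mean of the members.

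Other genes of the cycle were read from 3 further lists, 50 S phase genes, 78 G2 and M phase genes and 36 regulators of G1. In stromal-like cells at day 3 against day 0, 38 were higher and 0 lower of 43 S phase genes tested, 70 higher and 1 lower of 72 G2 and M phase genes, and 21 higher and 6 lower of 32 regulators. In endothelial-like cells these were 30 and 3 of 36, 28 and 2 of 33, and 14 and 3 of 27. Among monocyte/macrophage-like cells they were 10 and 0 of 16, 7 and 5 of 19, and 6 and 2 of 18. Of all genes tested, 33.4% were higher and 32.8% lower in stromal-like cells. These shares were 28.5 and 27.3% in endothelial-like and 25.6 and 28.2% in monocyte/macrophage-like cells. As with the members, listed genes with no UMI or few UMIs at day 0 passed the filter through day 3 alone, so that these counts are descriptions.

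Among genes with a mean of at least 5 CPM, Tk1, which phosphorylates thymidine, was the S phase gene with the largest increase at day 3 in each lineage, from means of 0.380 to 73.2 CPM in stromal-like, 0.210 to 57.8 CPM in endothelial-like and 1.15 to 29.2 CPM in monocyte/macrophage-like cells. Cdkn1c (p57), another kinase inhibitor, was the regulator with the largest decrease, with log2 differences of -2.43 ± 0.23 (21.5 and 130 CPM at day 3 and day 0), -4.19 ± 0.31 (25.7 and 503 CPM) and -3.89 ± 0.36 (1.91 and 30.4 CPM), with adjusted p = 1.55e-06, 2.99e-07 and 1.9e-06. In stromal-like cells it was higher at day 7 than at day 3 (3.45 ± 0.44, adjusted p = 0.000571). Mdm2, a target and brake of p53, was higher in monocyte/macrophage-like cells at day 3 (1.5 ± 0.16, adjusted p = 8.37e-06), and Cdkn2b (p15) in stromal-like cells at day 7 (4.09 ± 0.27, adjusted p = 2.33e-07) and day 21 (3.63 ± 0.29, adjusted p = 3.14e-06). At day 7 against day 3, 0 were higher and 34 lower of 50 S phase genes and 0 higher and 58 lower of 78 G2 and M phase genes in stromal-like cells, and 0 and 35 of 49 and 0 and 59 of 76 in monocyte/macrophage-like cells. None of the 3 lists held a called gene for p7N3 against day 7 in any of the 3 lineages.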

How the data were processed

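Single cell 3′ libraries (10x Genomics, v2 chemistry) were made from cells of the tenotomy site in 19 samples. The authors deposited UMI counts per gene and cell barcode, and the submitters' processing notes name Cell Ranger and Seurat, with GRCh38 for 15 libraries and mm10 for 4, although the gene identifiers are of the mouse and the study names mm10. The labels expect 3.9% multiplets. No column belonged to another series.

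From these counts, 39541 cells were kept by a floor of 500 detected genes and a ceiling of 25% for UMIs of mitochondrial genes. Leiden clustering (leidenalg 0.10.2 within scanpy 1.11.5) was run at a resolution of 0.8, on 30 components and 20 neighbours. Before it, 451 genes were left out of the choice of 2000 variable genes. Of these, 204 were listed cell cycle genes. The other 247 were left out only for a correlation above 0.2 with the mean of the members, and they include genes such as Vim, Timp1 and Lmna. Clusters were named from markers. The share of 1 small cluster is not reported here. No doublet was removed, and removal of the top 3.9% of Scrublet scores was an alternative. At most 22 barcodes were shared between any 2 libraries. For each library and lineage with at least 10 cells the counts were summed and tested with edgeR 4.0.16 (R 4.3.3; TMM, filterByExpr, quasi-likelihood F test, Benjamini-Hochberg, threshold 0.05), which was tested on simulated data, and CPM were scaled to all UMIs of a sum. DESeq2 1.42.0, other filters, groupings and clusterings and leaving out each library were tried as alternatives. UMIs per library were 3019467 to 39870492, and intervals and floors (3 UMIs) cover counting error only. For cells with no dividing cell among them, the limit is 3 cells.

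The 40 members and the other lists were chosen with earlier results of these data known. All members could be named. Full values were given for Mki67, Top2a, Cdk1, Ccnb1, Mcm5, Pcna, Ccnd1, Ccnd2, Cdkn1a and Cdkn2c and, per comparison, for the 2 members called with the largest change in each direction. Of each other list, at most 2 genes per direction were named, and outside the lists the 5 genes most like the member mean. Other members named, such as those not overlapping with p7N3, were chosen after their values were seen.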

Additional observations from a re-analysis of the deposited data

Results flagged for a closer look

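Of 132 groups of 4 libraries examined, those of 10 members and of the dividing share in 3 lineages, 9 held a library far from the other 3. Chance flags about 1 in 20 groups of normally spread values, which sparse counts are not. In monocyte/macrophage-like cells of day 0, replicate 1 had Ccnb1 at 3.07 CPM (2 UMIs) and Cdk1 at 6.14 CPM (4 UMIs), with 0 in the others. In stromal-like cells of day 21, replicate 4 had Ccnb1 at 13.2 CPM, the others 0.319 to 2.52 CPM, and Cdk1 at 31.4 CPM, the others 1.59 to 4.58 CPM. Ccnd2 was 20.2 CPM in monocyte/macrophage-like cells of day 21 replicate 2 and 7.36 to 8.37 CPM in the others. With p7N3, Cdk1 was 47.1 CPM in endothelial-like cells of replicate 1 (others 70.8 to 75.1 CPM) and 20.7 CPM in monocyte/macrophage-like cells of replicate 4 (others 13.4 to 13.9 CPM), and Cdkn2c was 39.5 CPM in stromal-like cells of replicate 4 (others 29.6 to 29.9 CPM). Mki67 was 0 CPM in endothelial-like cells of day 0 replicate 4 and 0.744 to 0.840 CPM in the others. Several of these libraries are of replicate 4, which has a separate run of sample numbers and none at day 3. Its dividing share over whole libraries was 8.47% at day 7 (others 5.39 to 8.13%) and 4.14% at day 21 (others 1.27 to 2.15%). With p7N3 it was 10.5% (others 6.14 to 7.29%), and at day 0 it was 0% (others 0 to 0.525%). Whether replicate 4 is a batch was not tested.

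Some members were called in opposite directions in a pair of lineages under the same comparison, and the difference itself was not tested. At day 3 against day 0 the log2 difference of Cdkn1a in monocyte/macrophage-like cells was above that in stromal-like cells by 2.27 (0.45 and -1.82) and above that in endothelial-like cells by 2.13. The log2 difference of Cdkn2c at day 3 was above that of monocyte/macrophage-like cells by 2.06 in stromal-like and by 2.93 in endothelial-like cells. At day 7 against day 0 these values for Cdkn2c were 2.52 and 2.76. For Kif23 at day 7 they were 7.04 (4.86 and -2.18) and 3.89.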

How the results depend on the processing

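Under the alternatives run no called member of the 3 main lineages turned its sign where it was still tested. Counts and shares have no sign to turn, but thinning turned the order of day 3 and day 7 in pericyte/smooth muscle-like cells (27.2 and 17.9%, thinned 2.30 and 6.78%). In all, 465 alternative values of the counts and shares stayed close to the reported ones, whereas 72 moved. Calls were tallied for Mki67, Top2a, Cdk1, Ccnb1, Mcm5, Pcna, Ccnd1, Ccnd2, Cdkn1a and Cdkn2c, and not for the other members with full values. For the members so tallied, 1659 alternative values of their calls kept the call and 60 lost it. Alternatives in which such a member did not pass the filter were not counted, so that these numbers do not measure calls lost to a filter. A filter of at least 10 UMIs in every library removes members at 0, and how many members it left to test is not given here. With it, the members called against day 0 were 2 at day 3 and 1 at day 7 in monocyte/macrophage-like, 5 and 4 in stromal-like and 10 and 9 in endothelial-like cells, and 1 in endothelial-like cells at day 7 against day 3. Without a filter they were 30 (day 3) and 6 (day 21) in monocyte/macrophage-like, 23 (day 21) in stromal-like and 26 (day 21) in endothelial-like cells, 9 in endothelial-like cells at day 7 against day 3, and 1 for p7N3 in monocyte/macrophage-like cells, where 20 of 18088 genes were called. For comparisons of days, the share of all genes called under an alternative is not given in this report. Such counts therefore show how far a count moved and do not set the members apart from other genes. One fit of all 5 groups gave 26 in monocyte/macrophage-like cells at day 3 and 18 and 19 in stromal-like and endothelial-like cells at day 21. At day 21 in endothelial-like cells DESeq2, replicates 1 to 3, removal of top Scrublet scores and at least 1000 genes per cell gave 5 each, and the last gave 1 in monocyte/macrophage-like cells. A resolution of 2, and leaving only the 40 members out of the variable genes, gave 8 each in monocyte/macrophage-like cells at day 3. In endothelial-like cells at day 7 against day 3 replicates 1 to 3 gave 1, removal of top Scrublet scores 0, and no cell with a Ptprc UMI, an alternative chosen after seeing the data, 1.

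Same-numbered libraries were not treated as pairs, since in no comparison did every same-numbered pair correlate above 0.1. This rule cannot exclude a pairing. In stromal-like cells with p7N3, 3 of 4 pairs did (up to 0.25), and 3 correlated best with their own number. With a replicate block, 0 members were called in endothelial-like cells at day 7 against day 3 and 0 for p7N3 in each lineage.

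Shares depended on depth. Thinned to 2000 UMIs they were 1.02, 0.375, 0.409 and 0.510% in monocyte/macrophage-like cells at day 3, day 7, day 21 and with p7N3, 5.20, 2.17 and 2.36% in stromal-like cells at day 3, day 7 and with p7N3, and 10.6, 2.89, 0.514 and 2.14% in endothelial-like cells. With 2 of the 5 genes they were 10.4, 1.93 and 2.38% (day 3, day 7, p7N3), 67.4, 17.1 and 19.7%, and in endothelial-like cells 0.0883% at day 0, 18.3% at day 7 and 18.5% with p7N3. In monocyte/macrophage-like cells a resolution of 2 gave 3.07 and 0.911% at day 3 and day 7, and leaving only the 40 members out of the variable genes 2.89, 0.794 and 0.814% at day 3, day 7 and with p7N3. At a resolution of 2 a cluster led by Mmp9, Acp5 and Ctsk, with 420 cells and 27.4% dividing cells over all groups, had no name and was counted in no lineage. The cause of these shifts was not tested.

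Leaving out one library gave 11 to 27, 4 to 9 and 1 to 5 members in monocyte/macrophage-like cells at day 3, day 7 and day 21 against day 0, 4 to 12 in endothelial-like cells at day 21, and, at day 7 against day 3, 14 to 32 in stromal-like and 1 to 15 in endothelial-like cells. The shares ranged from 31.9 to 52.7% in endothelial-like cells at day 3, from 0.423 to 1.43% in stromal-like cells at day 21, and from 0.242 to 0.711% in monocyte/macrophage-like cells at day 0. Sums of few cells at day 0 limit what can be read of rare transcripts.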
